A study of Mus musculus with 2 samples.

Results

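The 9 genes described here, P2ry12, P2ry13, Tmem119, Cx3cr1, Csf1r, Siglech, Sall1, Gpr34 and Fcrls, are named for the resting state of microglia, the resident macrophages of the brain. They were chosen by symbol out of 20660 named genes on a 1-colour Agilent mouse array, and 13 probes whose accession belongs to a member read them. All 9 genes and all 13 probes were well above background on both arrays. The mice were male, on a C57Bl/6 N background and 12 weeks old. The Il18-/- group carried the homozygous mutant genotype at the gene for interleukin-18 and the Il18+/+ group the homozygous normal genotype, with strain, sex and age shared. Neither the construction of the Il18 allele nor the cells that normally make the cytokine in these mice are given in the sources used here. RNA of 7 mice was pooled per genotype, and each pool was hybridised to 1 array.

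Microglia survey the tissue with motile processes and clear debris and dying cells. P2ry12 and P2ry13 sense ADP released by damaged or active cells, Cx3cr1 receives fractalkine displayed by neurons, and Csf1r receives the survival signals CSF1 and interleukin-34. Sall1 is a zinc finger transcription factor that maintains the resting programme under transforming growth factor beta signalling. Expression of such genes is known to fall when microglia turn to an inflammatory or disease-associated state. Interleukin-18 is a cytokine of the interleukin-1 family that inflammasome-bearing cells such as macrophages release. How far its loss alters these transcripts in the unstimulated brain is the comparison made here.

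With 1 pool per genotype there was no biological replicate, so no test was made and every value describes these 2 arrays. In bulk RNA, fewer cells of a type and less RNA per cell cannot be told apart. Levels are log2 processed intensities minus the 75th percentile of the array, so that 0 stands for 709.9 intensity units in Il18-/- and 694.8 in Il18+/+. Differences are Il18-/- minus Il18+/+ on the log2 scale. The probe of Il18 had a level of -0.12 in Il18-/- and 1.37 in Il18+/+, differing by -1.49. It remained well above background in Il18-/-, and the position of its probe relative to the mutation is not given in the sources used here. Hippocampus is the labelled tissue, but the extraction protocol speaks of prefrontal cortex. All 10 listed genes of hippocampal neurons, a list chosen after the data were read, were well above background on both arrays. Of the 20660 named genes 15737 were measured, and no list of cortical genes was set beside the hippocampal one. Which tissue was used can therefore not be told from these genes. The share of all probes well above background was 65.4% for Il18-/- and 67.2% for Il18+/+.

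The homeostatic genes read nearly alike in both genotypes. Of the 9 members, 5 were lower and 4 higher in Il18-/-, with a median difference of -0.02, beside a median of 0.01 over all 15737 measured genes, of which 47.4% were lower and 52.6% higher. None of the 9 reached 1.5-fold in either direction, a size that 4.25% of all measured genes reached. At 1.2-fold 1 member, Sall1, was lower, beside 12.4% of all genes, and no member was higher, beside 7.33% of all genes. The median size of the difference, regardless of direction, was 0.08 among the members and 0.12 among all genes. A difference smaller than 0.1 was found for 6 members, and for 41.9% of all genes. Nothing particular to the members is read from these counts.

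**Figure D1:**
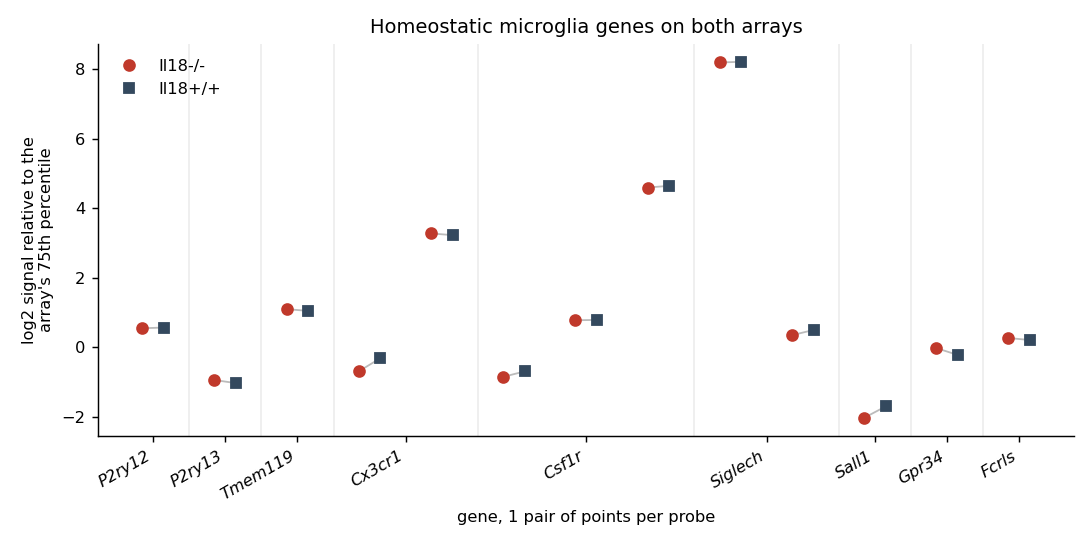
Level of each homeostatic microglia gene on the Il18-/- array (circles) and the Il18+/+ array (squares), with 1 pair of points per probe; the vertical axis is the log2 signal relative to the array's 75th percentile. Each pair lies nearly level, the steepest being a Cx3cr1 probe at -0.69 and -0.31, and heights can be compared within a pair but not between probes.

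How large a difference could arise on the glass was read from the 304 measured probes that were spotted at least 5 times on each array. None of the member probes was among them, as each was spotted once. Among repeated probes within 1 log2 unit of a member probe's level, the median standard deviation of the difference between single spots was 0.03 to 0.12. It was largest for Sall1, the dimmest member. The scanner software's own error estimate was broader, at 0.20 to 0.21 for the difference of any member probe. Neither figure contains the spread between animals or pools, which is unknown here.

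The purinergic receptors come first. P2ry12 encodes the ADP receptor through which microglial processes find an injury. Its probe gave an intensity of 1037.8 in Il18-/- and 1032.9 in Il18+/+, or levels of 0.55 and 0.57. The difference of -0.02 was smaller than the spread of repeated spots, 0.07, and 89.4% of all genes differed by more. P2ry13, a related ADP receptor, gave an intensity of 369.7 in Il18-/- and 339.7 in Il18+/+. Its difference of 0.09 equalled the spread of repeated spots at its level. Gpr34, a receptor of the same branch that binds lysophosphatidylserine, gave 702.2 in Il18-/- and 595.7 in Il18+/+. That difference, 0.21 or 1.15-fold higher, was the highest among the members. It exceeded 0.12, the 95th percentile of the standard deviations of repeated probes at that level. That percentile is taken across probes and is not a limit on single differences. The Gpr34 difference about equalled the software's error of 0.20, and 28.1% of all genes differed by more.

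P2ry12 and P2ry13 are neighbours on chromosome 3 in the gene order of GRCm38.p6, with P2ry14 close by, and Gpr34 lies beside Gpr82 on the X chromosome. P2ry14, a receptor for UDP-sugars, read -2.22 in Il18-/- and -2.14 in Il18+/+. Gpr82, an orphan receptor gene read by a dim probe, was at -4.91 in Il18-/- and -4.63 in Il18+/+, on the opposite side to Gpr34. Of 10 P2Y and P2Y-like relatives on the array that are no members, 6 were measured, with a median of -0.10. Of those 6, 4 were lower and 2 higher, beside 47.4% and 52.6% of all measured genes. P2ry1, a further ADP receptor, differed by -0.26, and P2ry6, the UDP receptor that drives microglial phagocytosis, by 0.07. P2ry2, which binds ATP and UTP, was 1.38-fold higher at dim levels of -3.21 in Il18-/- and -3.67 in Il18+/+. Gpr183, the oxysterol receptor gene, differed by -0.11. None of these relatives reached 1.5-fold.

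Promoter sequences were tabulated from RefSeq (GRCm38.p6) for 6 members, namely P2ry12, P2ry13, Cx3cr1, Siglech, Sall1 and Fcrls. Each covers 250 bases before to 50 bases after a transcription start, read in the direction of the gene. The neighbours P2ry12 and P2ry13 and the immunoglobulin-superfamily genes Siglech and Fcrls are printed because each holds the purine-rich letters GAGGAA or AGGAAG, or both, that the macrophage factor PU.1, encoded by Spi1, is known to bind. Capitals mark these letters on either strand, and both overlap in GAGGAAG.
P2ry12, minus strand, chr3:59262936-59263235: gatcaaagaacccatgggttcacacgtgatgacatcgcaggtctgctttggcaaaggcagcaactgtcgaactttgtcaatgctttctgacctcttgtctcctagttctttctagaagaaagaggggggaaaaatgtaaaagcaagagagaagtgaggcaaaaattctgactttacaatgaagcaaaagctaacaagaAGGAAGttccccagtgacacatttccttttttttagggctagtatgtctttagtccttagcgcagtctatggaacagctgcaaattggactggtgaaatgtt
P2ry13, minus strand, chr3:59210833-59211132: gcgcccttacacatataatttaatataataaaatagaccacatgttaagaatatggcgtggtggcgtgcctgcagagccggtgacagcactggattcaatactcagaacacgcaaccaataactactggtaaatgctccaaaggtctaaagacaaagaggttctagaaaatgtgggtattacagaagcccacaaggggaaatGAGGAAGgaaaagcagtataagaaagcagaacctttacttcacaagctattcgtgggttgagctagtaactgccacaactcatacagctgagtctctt
Siglech, plus strand, chr7:55767934-55768233: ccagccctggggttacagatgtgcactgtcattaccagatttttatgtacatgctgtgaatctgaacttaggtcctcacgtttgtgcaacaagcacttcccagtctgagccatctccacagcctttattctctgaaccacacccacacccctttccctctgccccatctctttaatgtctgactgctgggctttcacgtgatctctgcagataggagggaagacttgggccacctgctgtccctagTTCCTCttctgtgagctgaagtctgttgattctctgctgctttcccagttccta
Fcrls, minus strand, chr3:87263475-87263774: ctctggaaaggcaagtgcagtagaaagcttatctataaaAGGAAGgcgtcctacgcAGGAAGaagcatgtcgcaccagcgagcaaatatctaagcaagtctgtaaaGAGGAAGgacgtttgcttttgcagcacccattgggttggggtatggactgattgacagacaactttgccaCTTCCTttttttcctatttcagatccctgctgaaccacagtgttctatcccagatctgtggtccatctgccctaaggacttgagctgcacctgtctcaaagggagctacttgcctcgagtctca
These 6 members have 8 tabulated promoters. GAGGAA stood in 3 of the 8 and in 28.3% of all 32851 tabulated promoters. AGGAAG stood in 4 of the 8, 1 of them at 1 of the 3 tabulated starts of Sall1, and in 35.4% of all. Fcrls held AGGAAG at 4 places. A match is a description of letters and no binding site was measured. The 4 printed genes differed between genotypes by -0.08 to 0.09. Sall1, which holds AGGAAG at 1 start and is not printed, differed by -0.33. Cx3cr1, whose promoter holds neither string of letters, differed by -0.16.

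The surface receptors for neuronal and growth factor signals gave mixed readings. Csf1r, the receptor kinase on which microglial survival depends, was read by 3 probes. The brightest gave an intensity of 17157.3 in Il18-/- and 17411.9 in Il18+/+, the middle one 1215.4 in Il18-/- and 1198.2 in Il18+/+, and the dimmest 392.9 in Il18-/- and 429.7 in Il18+/+. Their differences were -0.05, -0.01 and -0.16, so all lay on the lower side, and their mean was -0.07. The gap between the Csf1r probes was 0.15, and 56.4% of the 4123 genes with several measured probes had a gap at least as wide.

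Cx3cr1, the fractalkine receptor gene, was read by 2 probes that disagreed. The brighter gave 6915.6 in Il18-/- and 6521.0 in Il18+/+, a difference of 0.05, equal to the spread of repeated spots at its level. The dimmer gave 439.3 in Il18-/- and 560.0 in Il18+/+, a difference of -0.38 or 1.30-fold lower. Its size exceeded 0.14, the 95th percentile of the standard deviations of repeated probes at that level, again no limit on single differences. Averaging both gave -0.16, and the direction therefore rests on the dimmer probe. A gap as wide as theirs, 0.44, was found in 17.8% of genes with several probes. Around the dimmer probe on the glass, 11 of the 18 nearest spots were measured, with a median difference of -0.14. The part of those neighbouring spots in the reading was not tested.

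Tmem119, a transmembrane protein gene used to tell microglia from other macrophages, gave an intensity of 1521.7 in Il18-/- and 1442.5 in Il18+/+. The difference of 0.05 was below the spread of repeated spots, 0.07. Its neighbour on chromosome 5, Selplg, which encodes the P-selectin ligand and is also rich in microglia, read -0.21 in Il18-/- and 0.22 in Il18+/+, with both of its probes lower.

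The immunoglobulin-superfamily members differed little. Fcrls, an Fc receptor-like gene, gave 855.4 in Il18-/- and 803.6 in Il18+/+, a difference of 0.06. Siglech, a sialic acid-binding lectin gene that signals through the adaptor Tyrobp, was read by a probe of extreme brightness, with an intensity of 209137 in Il18-/- and 206635 in Il18+/+, and by a second at 905.9 in Il18-/- and 981.1 in Il18+/+. The first was brighter than 99.8% of all measured probes and was not saturated. Their differences were -0.01 and -0.15, averaging -0.08. Only the second exceeded in size the 95th percentile of the standard deviations of repeated probes at its level, 0.10. That percentile is again no limit on single differences. The files do not show whether the first probe reads Siglech alone. Tyrobp itself read 1.91 in Il18-/- and 1.85 in Il18+/+.

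Among the relatives of Siglech, Fcrls, Csf1r and Sall1, 12 of 15 were measured, with a median of 0.00. Of these, 6 were lower and 6 higher, beside 47.4% and 52.6% of all measured genes. Siglece, an inhibitory sialic acid receptor gene, was 1.31-fold higher, and Fcrlb, an Fc receptor-like gene, differed by 0.25. Kit and Flt3, receptor kinase genes of the Csf1r family, differed by -0.24 and -0.20.

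Sall1 was the member farthest from equality. Its probe gave an intensity of 173.4 in Il18-/- and 213.4 in Il18+/+, or levels of -2.03 and -1.70. The difference was -0.33, or 1.26-fold lower. Its size exceeded 0.22, the 95th percentile of the standard deviations of repeated probes at its level, and the software's error estimate, 0.21. Neither value is a limit on single differences, so exceeding them does not set the reading apart from array noise. Of all measured genes, 13.7% differed by more, and 8.76% were lower than Sall1. This was the dimmest of the member probes, with a median pixel signal 5.2 times the local background in Il18-/- and 6.1 times in Il18+/+. Of its 18 nearest spots 10 were measured, with a median difference of -0.15, 2 of them lower by at least 1.5-fold and 1 higher by as much. The part of the neighbouring spots in the Sall1 reading was not tested. Its paralogue Sall3 read -3.05 in both genotypes, and Sall2 was at 2.30 in Il18-/- and 2.17 in Il18+/+.

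**Figure D2:**
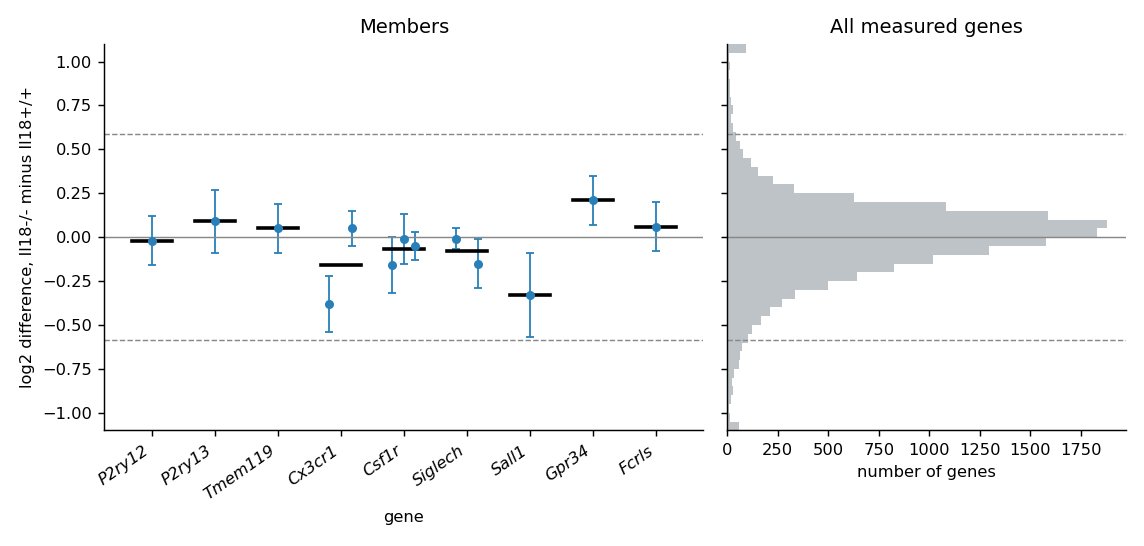
Left, log2 difference (Il18-/- minus Il18+/+) of each member probe (points), with bars of 2 standard deviations of single repeated spots at a like level, and the mean over probes (black lines); right, the same difference for all 15737 measured genes, with values past the axis stacked in the end bins. The member means lie between -0.33 and 0.21, and the lowest single probe, of Cx3cr1, is at -0.38, all inside the dashed lines at 1.5-fold. Of all genes, 90% lie between -0.45 and 0.33.

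The ligands and partners of these receptors were compared from a list of 14 genes, all measured. Of these, 5 were lower and 9 higher in Il18-/-, beside 47.4% and 52.6% of all measured genes. Their median was 0.06, and none reached 1.5-fold. Il34 and Csf1, the ligands of Csf1r, differed by 0.07 each, the 3 probes for Csf1 ranging from -0.16 to 0.34. Cx3cl1, which encodes fractalkine, read 6.21 in Il18-/- and 6.06 in Il18+/+. Entpd1, the ectonucleotidase that degrades ATP and ADP on microglia, read -2.54 in Il18-/- and -3.03 in Il18+/+, a difference of 0.49 by 1 probe and the highest of the list. Nt5e, which turns AMP to adenosine, differed by -0.14, and Panx1, an ATP release channel gene, by 0.18. Tgfb1, the factor that sustains the homeostatic state, differed by -0.17. Its receptor genes Tgfbr1 and Tgfbr2 differed by -0.01 and -0.18.

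Of 14 transcription factor genes tied to microglial identity, 12 were measured, with a median of 0.01 and none at 1.5-fold. Of these, 5 were lower and 7 higher, beside 47.4% and 52.6% of all measured genes. Irf8, a macrophage regulator, differed by 0.13 and Mef2c by 0.03. Mitf, a basic helix-loop-helix factor gene, was 1.38-fold lower, with its 2 probes at -0.72 and -0.20. Ets1 was 1.25-fold higher. Spi1 was not well above background on either array, and Runx1 was not in Il18-/-, so neither has a difference. The list is shared in part with other tissue, as Mef2c and Smad3 are also expressed by neurons.

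Other microglia-enriched genes leaned lower by small amounts. All 20 were measured, 15 lower and 5 higher, with a median of -0.08, beside 47.4% of all measured genes lower. At least 1.2-fold, 6 were lower and 1 was higher, beside 12.4% and 7.33% of all measured genes. Selplg was 1.35-fold lower, Crybb1, a crystallin gene of immature microglia, was 1.31-fold higher, and Plcg2, a phospholipase gene of Trem2 signalling, differed by 0.18. Sparc, Bin1 and Golm1 of this list are also expressed by other brain cells.

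Genes common to all macrophages were evenly split. Of 14 measured, 7 were lower and 7 higher, beside 47.4% and 52.6% of all measured genes. Their median was -0.02, with none at 1.5-fold. Laptm5, a lysosomal membrane gene, was 1.33-fold lower by both of its probes, and Itgam, which encodes CD11b, differed by -0.18 with its probes between -0.33 and 0.05. Cyba, a subunit of the phagocyte oxidase, was 1.23-fold higher by both probes, and Lyz2, a lysozyme gene, differed by 0.26.

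Genes that microglia switch on when they leave the homeostatic state in neurodegeneration lay on both sides of 0. Of 19 measured, 12 were higher and 7 lower, beside 52.6% and 47.4% of all measured genes, with a median of 0.07. At 1.5-fold 1 was higher, beside 1.68% of all genes, and 1 was lower, beside 2.57% of all genes. Cst7, which encodes cystatin F, read -2.28 in Il18-/- and -3.36 in Il18+/+, 2.13-fold higher by 1 probe, a size in that direction that 0.642% of all genes reached. Itgax, which encodes CD11c, was 1.45-fold higher at dim levels of -3.94 in Il18-/- and -4.47 in Il18+/+. Ccl6, a chemokine gene, was 1.51-fold lower, and Ch25h, which encodes cholesterol 25-hydroxylase, was 1.47-fold lower at dim levels of -5.08 in Il18-/- and -4.52 in Il18+/+. Apoe, which astrocytes express abundantly, differed by 0.09.

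Macrophages of the meninges, vessels and choroid plexus share Cx3cr1 and Csf1r with microglia. Of 12 marker genes for them, 8 were measured, 6 lower and 2 higher, beside 47.4% and 52.6% of all measured genes. Their median was -0.07 and their log2 summed level was 5.17 in Il18-/- and 5.22 in Il18+/+. Most of that sum came from the single probe of Mgl2, named after its values were seen, and the other 7 genes summed to 1.16 in Il18-/- and 1.32 in Il18+/+. Folr2, a folate receptor gene, was 1.93-fold lower, Stab1, a scavenger receptor gene, differed by -0.19, and F13a1 and Mrc1 were 1.17-fold higher each. Cd163 and Clec12a were not well above background on either array. Lyve1 and Siglec1, named after their values were seen, were well above background in Il18+/+ only. Lyve1 read -5.48 in Il18-/- and -4.23 in Il18+/+, and the former value was too dim for a difference to be given. Of 11 monocyte and lymphocyte genes only 5 were measured, with a median of -0.03, and S100a4, a calcium-binding protein gene, differed by 0.37. Ccr2, which marks inflammatory monocytes, was not well above background on either array.

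Larger differences were found for genes of other tissues. All 20 choroid plexus genes were lower in Il18-/-, by 0.86 to 1.65 log2 units, beside 47.4% of all measured genes lower. Their log2 summed level was 7.62 in Il18-/- and 8.61 in Il18+/+, or 5.99 in Il18-/- and 7.05 in Il18+/+ without Ttr. Of 12 oligodendrocyte genes 11 were lower, with a median of -0.22, beside 47.4% of all measured genes lower. Of 13 measured liver genes 10 were higher, with a median of 2.35, beside 52.6% of all measured genes higher. Ttr, counted in both the choroid plexus and the liver list, differed by -0.96. Neuron, astrocyte and endothelial genes had medians of -0.02, 0.00 and -0.09. Of 10 hippocampal neuron genes, 8 were higher, beside the same 52.6%. At 1.2-fold 4 were higher, beside 7.33% of all measured genes. The median difference of the 10 genes was 0.18, or -0.13 with spike-in scaling. The highest difference among them was that of Iyd, a dim gene here at -4.54 in Il18-/- and -5.40 in Il18+/+, or 1.81-fold. Microglia are a small part of the pooled tissue, and the part of a different mix of tissue in the members' readings was not tested.

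**Figure D3:**
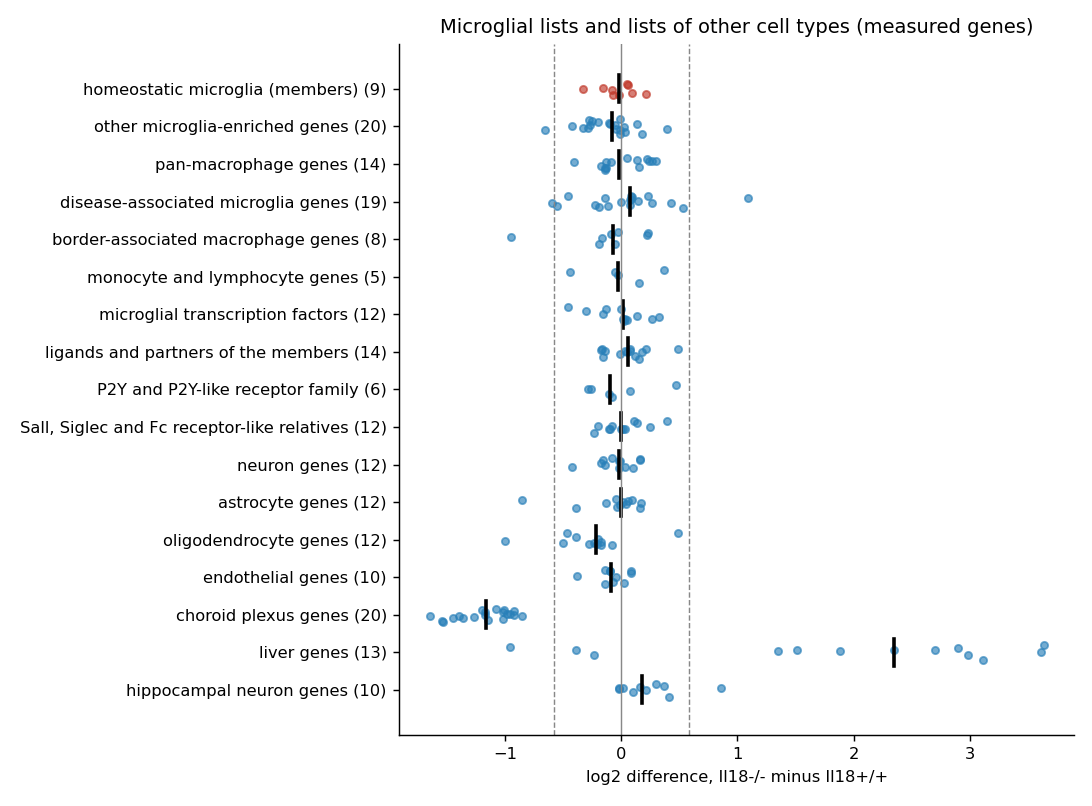
Log2 difference (Il18-/- minus Il18+/+) of each measured gene in the homeostatic microglia list (top) and in 16 other lists; black bars are list medians, brackets give the number of measured genes, and dashed lines mark 1.5-fold. The homeostatic genes lie between -0.33 and 0.21 around a median of -0.02, while choroid plexus genes lie at or below -0.86 and liver genes have a median of 2.35.

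The direction of the members depended on how the arrays were scaled. Scaled to the spike-in controls, RNA added in fixed amounts before labelling, every gene was lowered by 0.31, so that all 9 members were lower, with a median of -0.34, and Sall1 reached 1.5-fold. The median of all measured genes moved to -0.30 with it, and 1840 of the 15737 were at least 1.5-fold lower. Relative to that median, Sall1 was at -0.34 and Gpr34 at 0.19 under both scalings, and the members' median was at -0.04. In the other alternatives 4 or 5 members were lower, Sall1 kept a value between -0.33 and -0.27 and Gpr34 one between 0.18 and 0.26.

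**Figure D4:**
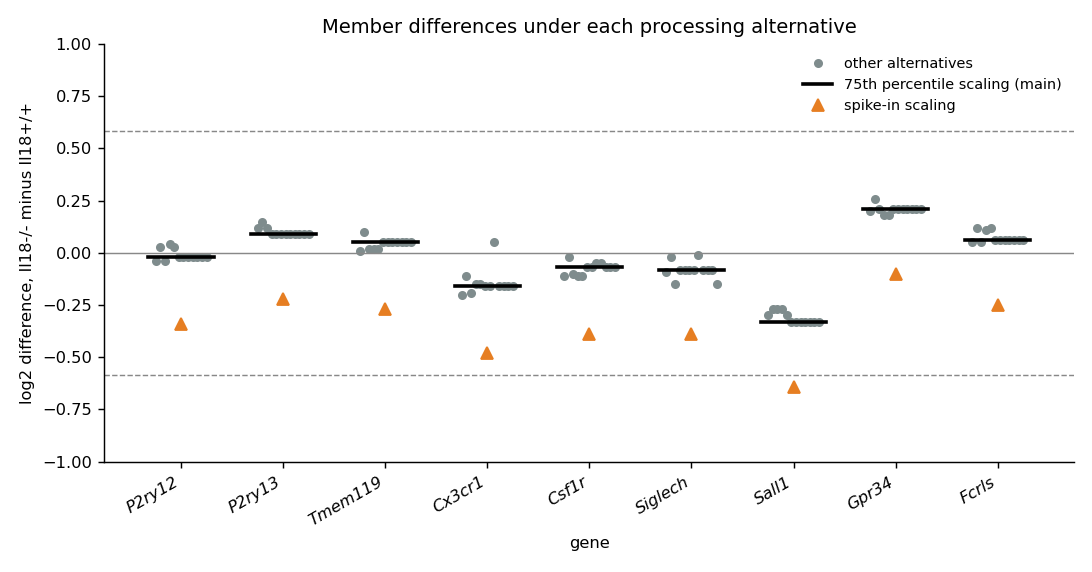
Log2 difference (Il18-/- minus Il18+/+) of each member with the main scaling to the 75th percentile (black lines), with spike-in scaling (triangles) and with each of the other alternatives (grey points); dashed lines mark 1.5-fold. Triangles lie 0.31 below the lines for every member, up to rounding, and Sall1 passes the lower dashed line only there, at -0.64.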

How the data were processed

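Messenger RNA was measured on 1-colour (Cy3) Agilent arrays, 1 per genotype. Agilent Feature Extraction 10.10.1.1 produced the deposited intensity, which per the file headers had its background subtracted and was detrended in each array by itself. The arrays share 1 slide and 1 scan. The authors' deposited value table is the same intensity times 1 constant, 1.92 for Il18-/- and 2.05 for Il18+/+, linear, uncentred, with column medians of 139.5 and 151.5 in that order; what the constants were set to is unknown. Arrays have no depth, and their number limits the precision.

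From 62976 spots, 3671 controls and outlier spots (177 on the Il18-/- array, 124 on the Il18+/+ array) were left out. Log2 intensities minus the array's 75th percentile were averaged per probe, then per gene over probes well above background on both arrays. Accessions without versions were matched to RefSeq genes of GRCm38.p6, naming 27235 of 55681 probes. Members and lists were chosen with earlier results of these data known, and the hippocampal list after the files were read. Named genes are Il18, the members, any measured ligand, transcription factor or P2Y relative, and the 2 highest and 2 lowest of other lists. Sall2, Apoe and genes said to be shared with other cells or not measured were added for context. Some listed genes are not reported here by name. The calculation was tested on simulated data. Alternatives were quantile, median, loess and spike-in scaling, normexp (offset 50) and uncorrected median signal (the files used here hold no mean signal), filters on dim probes, the rule over probes, outlier spots kept and the deposited values. Leaving out the very bright Siglech probe was added after seeing the data. Tools were R 4.3.3 with limma 3.58.1, and Python 3.11.15 with scipy 1.17.1, pandas 2.3.3, numpy 2.4.6 and matplotlib 3.10.9.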

Additional observations from a re-analysis of the deposited data

Results flagged for a closer look

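The spike-in control probes gave a signal that differed between the arrays. The main comparisons did not use them, and only the spike-in scaling alternative did. Over the 8 spike-in probes well above background on both arrays, the median log2 difference was 0.31 higher in Il18-/- after scaling to the 75th percentile, with a range of 0.15 to 0.45.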

How the results depend on the processing

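With 1 array per genotype no setting could leave out a replicate. No paired analysis was possible because each genotype had 1 pooled sample. Of 13 alternatives, 12 gave the members' median values between -0.04 and 0.05, and left 4 or 5 members lower. Spike-in scaling moved it to -0.34, with 9 members lower, of which 6 by at least 1.2-fold and 1 by at least 1.5-fold. Of all 15737 measured genes, 9241 and 1840 were lower by at least those folds in that setting. Spike-in scaling lowers every gene alike by construction. With the array median as scale 1 member, Gpr34, was at least 1.2-fold higher, beside 1791 of the 15737 measured genes. Read by its brighter probe, Cx3cr1 was at 0.05. Siglech was at -0.15 without its very bright probe and -0.01 by that probe alone, -0.02 with the array median and -0.15 with loess. Other lists moved too. With loess the medians were -0.01 for the disease-associated list, -0.01 for the P2Y relatives and -0.10 for neuron genes (-0.09 with quantile normalization). The monocyte and lymphocyte list turned direction, to 0.07 with quantile normalization, 0.08 with loess and 0.15 with the stricter filter. The liver list ranged from 1.73 to 2.62 and the choroid plexus list from -1.21 to -1.01 without spike-in scaling, and the Sall, Siglec and Fc receptor-like relatives stood at -0.08 on uncorrected signal.

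Counts over all genes moved most, and cause was not tested except where stated. At 1.2-fold, genes higher numbered 1154 in the main setting, 1791 with the array median, 274 with spike-in scaling, 650 with normexp, 757 with uncorrected median signal and 2029 without a filter. Genes lower numbered 1948, against 9241 with spike-in scaling, 1014 with normexp, 3434 without a filter and 1179 with the stricter filter. At 1.5-fold, genes higher numbered 264, against 127 with spike-in scaling, 113 with normexp, 132 with uncorrected median signal, 815 without a filter and 156 with the stricter filter. Genes lower numbered 405, against 1840, 107, 147, 1357 and 195 in the same settings. At 2-fold, genes higher numbered 101, against 66 with spike-in scaling, 49 with normexp, 61 with uncorrected median signal and 395 without a filter. Genes lower numbered 71, against 254, 22, 34 and 500 in those settings and 46 with the stricter filter. The filters change how many genes are counted, from 13528 to 20660.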
